A study of Homo sapiens with 4 samples.

Results

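Within the bodies of annotated genes, 3608 regions were open in BJ fibroblasts that expressed ΔNp63α together with KLF4 and had no counterpart in fibroblasts that expressed KLF4 alone. They are called p63-only gene-body regions here. They were chosen from the 62233 ATAC-seq peaks of the p63 list that lay on chromosomes 1 to 22 and X and had a −log10 q of 10 or more. A region was taken when no peak of the control list, at any q, overlapped it by 1 bp, when its summit lay more than 3 kb from every annotated transcription start site (TSS), and when the summit lay inside a gene. Of the 7444 regions of the p63 list without any control peak, these made up 48.5%. They amounted to 15.3% of the 23523 gene-body regions of that list, and this share was fixed by the way they were chosen.

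BJ is an established line of human foreskin fibroblasts. ATAC-seq uses a transposase that inserts adapters into DNA free of nucleosomes, and the authors carried it out on 2 groups of 2 samples each. All samples carried doxycycline-inducible retroviral constructs and the transactivator rtTA, and all expressed KLF4. The CTR group expressed KLF4 from a construct without p63, and the p63 group expressed Myc-tagged ΔNp63α and KLF4 from a single construct, in which a self-cleaving peptide separates the proteins. The lines were polyclonal, and each was induced anew with doxycycline for its replicates. The paper describes this system as a way to detect early changes of chromatin after p63 is expressed. Replicates of a group were combined into 1 list of peaks, so no value below has an error between replicates, and the intervals given cover counting error only. As a bulk assay cannot separate them, a region open in few cells and a region weakly open in all cells cannot be told apart.

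p63 is a relative of p53 and the master regulator of stratified epithelia. ΔNp63α is its main isoform in basal keratinocytes. It binds DNA as a tetramer, and its recognition sequence is made of a pair of decamers that follow each other directly. Each decamer has 3 purines, a core of C and G with A or T between them, and 3 pyrimidines. In keratinocytes most p63 binding is found at enhancers, many of them in introns, and p63 can open chromatin that is closed in other cell types. KLF4 is a zinc finger factor of the differentiating epidermis, which is used with p63 to turn fibroblasts into keratinocyte-like cells.

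Sequences that matched the recognition sequence without a mismatch are shown first. The comparisons below also count matches with up to 3 mismatches. There were 36 p63-only gene-body regions with 0 mismatches, and those shown are among the ones with the highest −log10 q. Capitals mark the 20 bases of the best match on the plus strand of GRCh38, with 20 bases of flank on each side. The regions lay in introns of SH2D4B (an SH2 domain adaptor, chr10:80618969-80619478), SRGAP2C (a human copy of SRGAP2, chr1:121281589-121282057), CASC15 (a long non-coding RNA, chr6:22442863-22443202), PREP (prolyl endopeptidase, chr6:105372851-105373327), TMOD3 (a cap of actin filaments, chr15:51864381-51864920), NHS (the gene of Nance-Horan syndrome, chrX:17547673-17548167) and RFLNA (refilin A, a partner of filamin, chr12:124273574-124273929). All 7 had 0 mismatches.
SH2D4B: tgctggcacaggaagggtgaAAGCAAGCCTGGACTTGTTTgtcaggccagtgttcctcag
SRGAP2C: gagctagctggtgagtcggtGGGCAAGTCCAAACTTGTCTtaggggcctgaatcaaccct
CASC15: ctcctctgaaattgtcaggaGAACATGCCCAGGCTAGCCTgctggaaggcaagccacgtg
PREP: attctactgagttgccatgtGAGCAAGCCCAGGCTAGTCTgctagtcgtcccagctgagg
TMOD3: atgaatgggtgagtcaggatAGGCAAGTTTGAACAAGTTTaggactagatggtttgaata
NHS: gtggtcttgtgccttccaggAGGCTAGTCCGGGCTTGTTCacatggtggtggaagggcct
RFLNA: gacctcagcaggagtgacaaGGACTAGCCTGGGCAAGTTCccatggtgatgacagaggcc

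The centre of the match lay between 21.5 and 35.5 bp from the summit in these 7 regions. They are part of the 10 with the highest −log10 q among the 36, with 1 chromosome left out of the naming, and the remaining 3 of the 10 were in ENSG00000229337, in SRGAP2B and in SRGAP2. The 60 bases printed for SRGAP2C are found unchanged in SRGAP2 and, on the other strand, in SRGAP2B. The sequence within 50 bp of each of these 3 summits occurred 3 times in the genome, so reads from the copies cannot be told apart. In total, 67 of the 3608 p63-only gene-body regions (1.86%, 95% Wilson interval 1.46 to 2.35%) had such a repeated sequence at the summit.

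Most of the strongest regions, like most p63-only gene-body regions, had no match as close as those shown above. Of the 12 regions with the highest −log10 q, 4 had a match with at most 3 mismatches. These were at SH2D4B, SLC38A4-AS1, BSN and IQCJ-SCHIP1, and the other regions had 4 to 6 mismatches. Among all p63-only gene-body regions, 677 of 3608 (18.8%) had a match with at most 3 mismatches. That share was 12.9% in the class with the lowest −log10 q and 29.9% in the class with the highest, so stronger regions did not match worse. The following sequences show the match of regions at LINC01708 (a long non-coding RNA, chr1:99580328-99580987, 4 mismatches), EFCAB11 (an EF-hand protein, chr14:89858038-89858561, 5 mismatches), BABAM2 (a subunit of the BRCA1-A complex, chr2:28172408-28172877, 5 mismatches), BSN (the presynaptic scaffold bassoon, chr3:49567435-49568144, 2 mismatches) and IQCJ-SCHIP1 (a read-through gene, chr3:159881710-159882203, 1 mismatch).
LINC01708: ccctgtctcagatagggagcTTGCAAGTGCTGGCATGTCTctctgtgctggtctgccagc
EFCAB11: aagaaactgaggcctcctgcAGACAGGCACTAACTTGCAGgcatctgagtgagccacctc
BABAM2: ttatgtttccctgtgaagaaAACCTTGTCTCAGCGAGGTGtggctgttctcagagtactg
BSN: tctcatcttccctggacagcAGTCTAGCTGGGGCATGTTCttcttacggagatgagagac
IQCJ-SCHIP1: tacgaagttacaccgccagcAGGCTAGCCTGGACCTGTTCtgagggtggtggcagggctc

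The values by which the peak caller ranked the regions are given as a description, since they chose the members. Fold enrichment is the ratio of reads at the summit to the reads expected there. It had a median of 8.46 in p63-only gene-body regions, with quartiles of 7.52 and 10.3, and the highest value was 22.4 at LINC01708. In the 16677 gene-body regions that were also open in CTR at the threshold (shared regions) the median was 10.2. The median −log10 q was 15.3 against 23.7 and the median width 379 bp against 524 bp. Reads at the summit were solved from the fold and the p of each peak, which gave a median of 22 in p63-only and 32 in shared gene-body regions. The lowest value was 15 reads in either group, which the threshold sets. The CTR list held peaks down to 6 reads at the summit, and over 47321 regions shared by both lists the median ratio of CTR to p63 reads was 1. The reads that a peak needs rise with the reads expected at its place, so these values do not give the CTR reads at the p63-only regions, and how far depth or the caller's threshold set their absence from the CTR list was not tested.

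At SH2D4B the fold enrichment was 22.2 and the −log10 q 98.7, with 97 reads at the summit. LINC01708 had a −log10 q of 98.1 and 96 reads. The next values of −log10 q were 70.4 at SLC38A4-AS1 and at EFCAB11, 68.5 at BABAM2, 67.2 in an intron of MYH16, a myosin heavy chain pseudogene in humans, and 66.2 at ZMIZ1-AS1. EPB41L1, which links membranes to the cytoskeleton, had 62.3, NBEA, a membrane traffic protein of neurons, 60.5, SGO1-AS1 and BSN 59.8, and IQCJ-SCHIP1 59.6. Just inside the threshold were regions in LINC02580 (−log10 q of 10.006) and in BMP7 and ENSG00000286710 (10.013), and just outside it regions in PPP2R2C, TMEM117 and UPP2 (9.996). Just beyond the 3 kb limit were regions in STARD8, LPCAT4 and CASP8 at 3009, 3022 and 3023 bp from a TSS, and just within it were regions in RNF216 and RAB35 at 2989 and 2983 bp. A further 10012 gene-body peaks without any CTR peak lay below the threshold and were left out.

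To ask what the p63-only gene-body regions shared in sequence, the 100 bp to each side of every summit were scanned for the p63 site. A site was a pair of contiguous decamers with C and G of both cores in place, in which up to 3 of the remaining 16 positions could differ. It was present in 677 of 3608 p63-only gene-body regions (18.8%, 95% Wilson interval 17.5 to 20.1%). Shared gene-body regions had a site in 227 of 16677 cases (1.36%, 1.2 to 1.55%). The difference was 17.4 percentage points (95% Newcombe interval 16.1 to 18.7), and the share was higher in p63-only regions on 23 of 23 chromosomes. Windows of equal size 2 kb to both sides of the p63-only summits had a site in 83 of 7216 cases (1.15%, 0.929 to 1.42%), so a site was 16.3 times as frequent at the summits.

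An intermediate class of 3238 gene-body regions overlapped a CTR peak that stayed below the threshold. Its site share was 3.95% (3.33 to 4.68%), and p63-only regions exceeded it by 14.8 percentage points (13.4 to 16.3), again on 23 of 23 chromosomes. No difference in site share was detectable against intergenic or promoter regions without any CTR peak. A promoter region had its summit within 3 kb of a TSS, inside or outside a gene. The site share was 19.2% (17.6 to 21%) in the 2095 intergenic and 18.3% (16.5 to 20.1%) in the 1741 promoter regions of the p63 list without any CTR peak. The differences between the gene-body regions and these classes were −0.472 (−2.61 to 1.62) and 0.498 (−1.76 to 2.68) percentage points.

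The closer the match, the more often a gene-body region had no CTR peak. This held for 36 of 45 regions with 0 mismatches (80%, 66.2 to 89.1%) and for 56 of 67 with 1 mismatch (83.6%, 72.9 to 90.6%). The share was 68.2% at 2, 61.9% at 3, 47.2% at 4 and 31.1% at 5 mismatches. At 6 mismatches it was 19.9% (18.2 to 21.7%), still above the 15.3% of all gene-body regions. It was 8.35% (7.95 to 8.76%) among the 17741 regions with 7 or more mismatches.

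**Figure D1:**
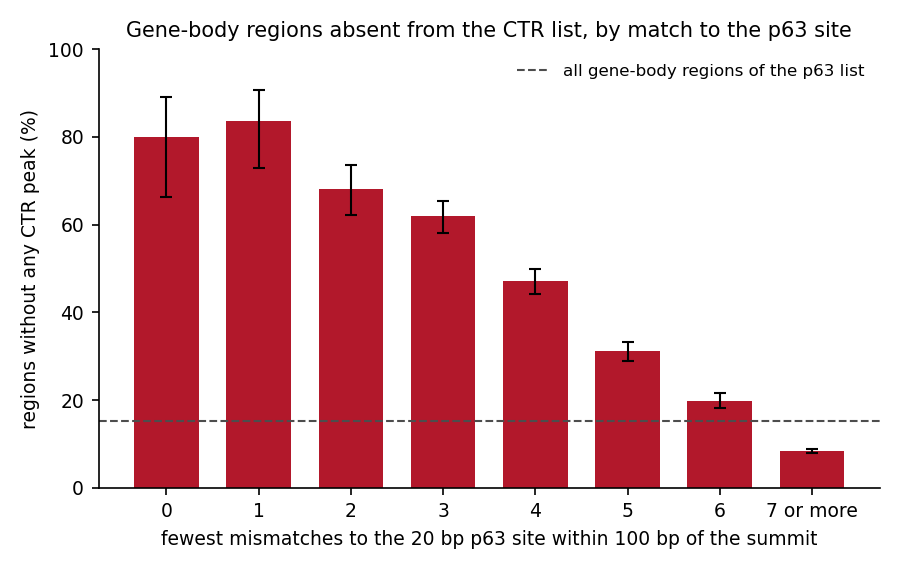
Share of gene-body regions of the p63 list that had no CTR peak (%, y axis) by the fewest mismatches of any sequence within 100 bp of the summit to the p63 site (x axis). Bars show the share, error bars 95% Wilson intervals and the dashed line the 15.3% of all 23523 gene-body regions; the share lay at 80% or more with 0 or 1 mismatch and at 8.35% with 7 or more.

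Sequences with more mismatches than a site allows were also more frequent at the summits of p63-only gene-body regions. Between 4 and 6 mismatches were found for 1450 regions (40.2%, 38.6 to 41.8%), against 15.2% (14.6 to 15.7%) of shared regions and 12% (11.2 to 12.7%) of the windows 2 kb away. Counting all sequences with 6 mismatches or fewer, 59% of p63-only regions (57.3 to 60.5%), 27.7% of the intermediate class and 16.5% of shared regions had one.

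The sites lay close to the summits. In p63-only gene-body regions there were 1452 sites per kb and 1000 regions within 50 bp of the summit, 543 between 50 and 100 bp, 144 between 100 and 200 bp, and 52.4 between 500 and 1000 bp. Shared regions had 81.5 within 50 bp and 54.6 between 500 and 1000 bp. The median distance between the centre of the best site and the summit was 31.5 bp, and 506 of the 677 regions (74.7%) had it within 50 bp. Sites were not most frequent at the summit itself. Their density was 1552 from −50 to −25 bp and 2073 from 25 to 50 bp, whereas it was 1031 and 1153 in the 25 bp to either side of the summit. No test was applied to this dip.

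**Figure D2:**
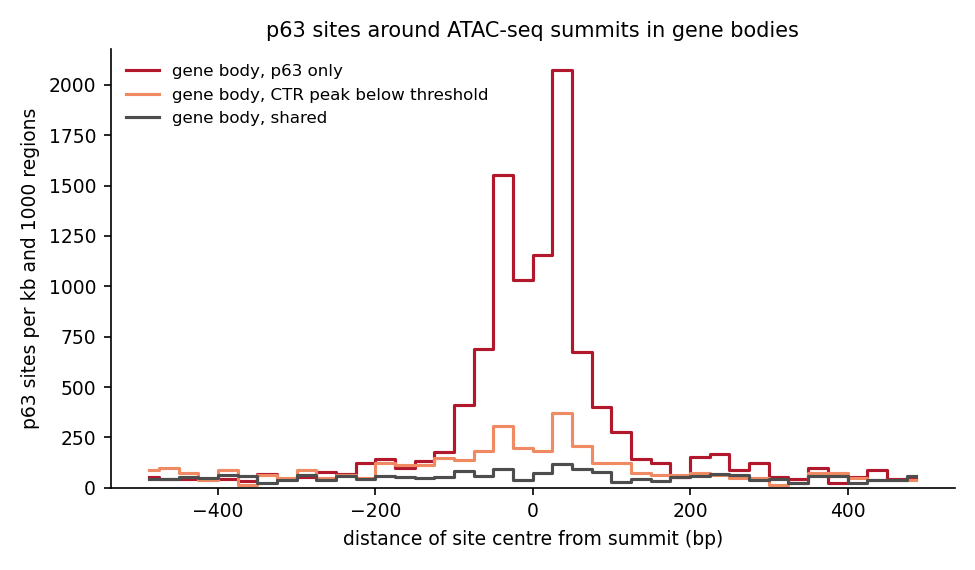
Density of p63 sites (sites per kb and 1000 regions, y axis) by distance of the site centre from the ATAC-seq summit (bp, x axis, bins of 25 bp) for p63-only, intermediate and shared gene-body regions. p63-only regions reached 2073 between 25 and 50 bp with a lower value at the summit, and the shared regions reached at most 120, also between 25 and 50 bp, against 54.6 at 500 to 1000 bp.

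Single decamers and their spacing were examined next. A decamer without any mismatch was present in 764 p63-only gene-body regions (21.2%, 19.9 to 22.5%), in 6.99% of shared gene-body regions (6.61 to 7.39%) and in 5.32% of the windows 2 kb away (4.83 to 5.86%). Intergenic regions without any CTR peak had such a decamer in 25.1% (23.3 to 27%), and the share in gene bodies minus that share was −3.93 percentage points (−6.24 to −1.67). Pairs of decamers with at most 1 mismatch each, with C and G of the cores in place, were counted by the number of bases between them. Pairs without a spacer occurred in 174 p63-only regions (4.82%, 4.17 to 5.57%) and in 0.198% of shared regions (0.141 to 0.278%). With 1 to 20 bases between the decamers the share of p63-only regions lay between 0.166% and 0.859%, the latter at 11 bases (0.606 to 1.22%). At 11 bases the shared regions had 0.12% (0.0776 to 0.185%) and the windows beside the summits 0.0831% (0.0381 to 0.181%). The share was higher in p63-only than in shared regions at 19 of these 20 spacings, and at 18 bases it was 0.166% (0.0762 to 0.362%) against 0.168% (0.116 to 0.243%). In p63-only regions the direct pair stood above all other spacings.

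**Figure D3:**
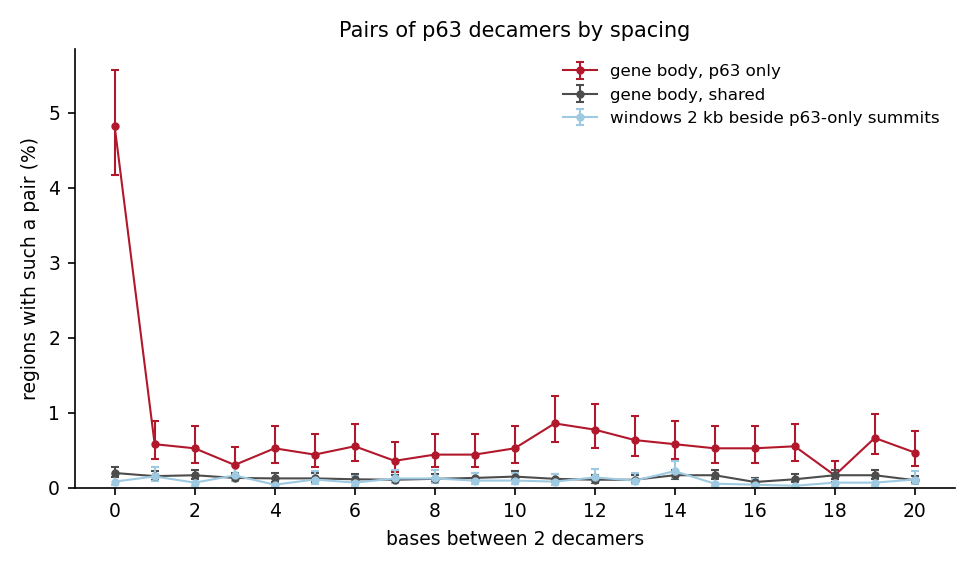
Share of regions (%, y axis) with 2 p63 decamers separated by 0 to 20 bases (x axis), each decamer with at most 1 mismatch, in p63-only and shared gene-body regions and in windows 2 kb beside the p63-only summits. Error bars are 95% Wilson intervals; 4.82% of p63-only regions had a pair with 0 bases between, and all longer spacings stayed at or below 0.859%.

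The decamers also differed in the 2 bases between C and G of the core. With the outer purines and pyrimidines in place, a core with AT was 5.66 times as frequent at p63-only summits as in the windows beside them (7.84% against 1.39%), one with AA or TT 3.97 times (12.4% against 3.12%) and one with TA 2.65 times (2.27% against 0.859%). Cores outside the definition of the site were also raised, those with AG or CT 2.96 times (12.3% against 4.14%), AC or GT 3.16 times (1.88% against 0.596%), CG 2.94 times (0.693% against 0.236%) and GA or TC 2.61 times (1.3% against 0.499%). The ratio was 1.18 for CA or TG, 0.97 for CC or GG and 1 for GC, which only 2 p63-only regions had. In the 2931 p63-only gene-body regions without a site, the ratio was 4.09 for AT, 2.89 for AA or TT and 2.74 for AG or CT. Shared regions had ratios of 1.66, 1.31 and 1.12 for these cores, and of 2.17 for AC or GT.

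Motifs of other factors were compared on both strands of the same windows. AP-1, the FOS and JUN dimers that mark enhancers in fibroblasts and keratinocytes alike, binds TGACTCA or TGAGTCA. One of these lay near 658 p63-only gene-body summits (18.2%, 17 to 19.5%) and near 36% of shared gene-body summits (35.3 to 36.7%), a difference of −17.8 percentage points (−19.2 to −16.3), with the lower share in p63-only regions on 23 of 23 chromosomes. The intermediate class had 28.4% (26.9 to 30%). The windows beside p63-only summits had 3.6% (3.2 to 4.06%), so the motif was still 5.06 times as frequent at the summits as 2 kb away. AP-1 motifs were present in 14% (11.6 to 16.9%) of p63-only regions with a p63 site and in 19.2% (17.8 to 20.7%) of those without. Shared gene-body regions differed in the same direction, with 25.1% (19.9 to 31.1%) and 36.2% (35.4 to 36.9%). Neither an AP-1 motif nor a p63 site was found in 2368 p63-only regions (65.6%), and 1162 (32.2%) had no AP-1 motif and no sequence with 6 or fewer mismatches to the site. Of 16677 shared gene-body regions, 16450 had no p63 site, and 5948 of these 16450 had an AP-1 motif. Regions with neither were thus the majority in both classes.

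TEAD factors, the DNA-binding partners of YAP and TAZ, were represented by ACATTCCA, ACATTCCT, GCATTCCA and GCATTCCT, and RUNX factors by TGTGGTT. TEAD motifs accompanied 7.46% of the p63-only summits and 11% of shared gene-body summits, a difference of −3.57 percentage points (−4.52 to −2.56). For RUNX the shares were 5.54% and 8.36%, a difference of −2.82 (−3.64 to −1.93). The motif of CTCF, which holds chromatin loops, was allowed 1 mismatch and was found near 4.07% and 8.62%, a difference of −4.55 (−5.29 to −3.74). Compared with the windows 2 kb away, p63-only summits had TEAD motifs 1.98, RUNX motifs 1.42 and CTCF motifs 5.35 times as often. The differences for TEAD, RUNX and CTCF were not weighted for −log10 q, which was higher in shared regions. KLF motifs (GGGCGGGGC, GGGCGTGGC, GGGTGGGGC or GGGTGTGGC) are of interest because KLF4 was expressed in both groups. They lay near 2.83% and 2.87% of summits, a difference of −0.0392 (−0.598 to 0.602). AP-2 motifs (GCCNNNGGC) were found near 7.37% and 7.84%, a difference of −0.471 (−1.38 to 0.512). AACCGGTT, bound by the grainyhead-like (GRHL) factors of epithelia, was present in 3 p63-only and 10 shared gene-body regions, too few to compare. Some KLF and AP-2 matches can overlap each other, and motifs are described as letters in these windows without any statement on binding.

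**Figure D4:**
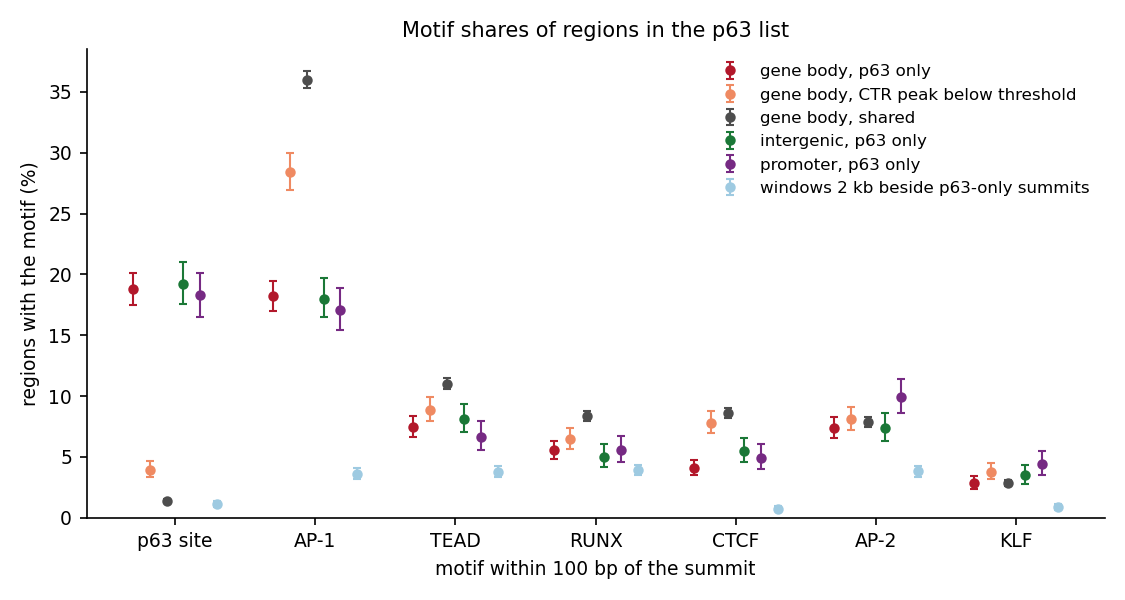
Share of regions of the p63 list (%, y axis) with each motif within 100 bp of the summit (x axis), by class of region and in windows 2 kb beside p63-only gene-body summits. Points are shares and error bars 95% Wilson intervals; p63-only regions in gene bodies, between genes and at promoters lay near 18 to 19% for the p63 site and near 17 to 18% for AP-1, whereas shared gene-body regions had 1.36% and 36%.

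Base composition and strength differed between the classes as well. The median GC content of the windows was 49.3% at p63-only and 46.8% at shared gene-body summits. With shared regions weighted to the GC content of the p63-only regions, the difference in the site share was 17.3 and in the AP-1 share −17.4 percentage points. With weights for −log10 q the differences were 17.9 (16.7 to 19.2) and −14.4 (−15.9 to −12.8). Within the p63-only gene-body regions the site share was higher in stronger regions, from 12.9% (10.8 to 15.3%) in the lowest to 29.9% (26.7 to 33.4%) in the highest of 5 classes of −log10 q. Regions with a site had a median fold enrichment of 9.3 and a median −log10 q of 17.8, and those without a site 8.43 and 14.7. Shared gene-body regions also had higher medians with a site, 11.5 and 34.6, than without, 10.2 and 23.6.

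Their place within genes was then determined. Of the p63-only gene-body summits 3385 (93.8%) lay in introns, 186 (5.16%) in untranslated or non-coding exons and 37 (1.03%) in coding exons. Introns held 93.8% (93 to 94.6%) of p63-only and 94.1% (93.8 to 94.5%) of shared gene-body regions, a difference of −0.298 percentage points (−1.2 to 0.528). First introns held 48.1% (46.5 to 49.8%) and 48.3% (47.5 to 49.1%), a difference of −0.163 (−1.96 to 1.64). An intronic summit counted as such when it lay in the first intron of any annotated transcript of a host gene. The median distance to the nearest TSS was 12230 bp in p63-only and 12158 bp in shared regions. No difference in the share of introns or of first introns was detectable, and their intervals left room for less than 2 percentage points. The site share of p63-only regions was 20.1% (18.3 to 22%) in first introns, 17.8% (16.1 to 19.8%) in other introns, 16.1% (11.5 to 22.1%) in untranslated or non-coding exons and 10.8% (4.29 to 24.7%) in coding exons. It was 18.1% (16.2 to 20.1%) at 3 to 10 kb from a TSS and 20.9% (17.9 to 24.1%) at 30 to 100 kb.

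No difference was detectable between p63-only and shared gene-body regions in how often a shared open region lay nearby. The nearest shared region lay at a median of 15708 bp, and 531 p63-only regions (14.7%, 13.6 to 15.9%) had one within 5 kb. Among shared gene-body regions 15.2% (14.7 to 15.8%) had another within 5 kb, a difference of −0.507 percentage points (−1.76 to 0.802). The site share was 17.5% (14.5 to 21%) with and 19% (17.6 to 20.4%) without a shared region that near.

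The p63-only regions were spread over many genes. They lay in 2146 of 19970 protein-coding genes (10.7%), of which 1620 held 1 region, 354 held 2 and 172 held at least 3. Protein-coding genes hosted 2810 of the regions, 756 lay in genes of long non-coding RNAs only and 42 in other genes. Protein-coding hosts had a median length of 126 kb, against 93.6 kb for hosts of shared gene-body regions and 27.5 kb for all protein-coding genes, and 668 of them held no shared gene-body region. On each chromosome between 12.1% (chromosome 19) and 20% (chromosome 22) of the gene-body regions were p63-only. The site share ranged from 9.3% of 43 regions on chromosome 21 to 34% of 47 regions on X.

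The 10 protein-coding genes with the most p63-only regions were long. CDH23, a cadherin of hair cells, held 9 p63-only regions among 16 gene-body regions in 419 kb, none of them with a site. IQSEC1, an exchange factor for ARF GTPases, held 8 of 18, and CPNE4, a calcium-dependent membrane-binding protein, 8 of 15. One region of CPNE4 had a site with 0 mismatches. The share was nearer to the 15.3% of all gene-body regions in the others. SYN3 (synapsin) held 7 of 28, THSD4 7 of 23, KCNMA1 (a potassium channel) 7 of 38 (18.4%) and PALM2AKAP2 7 of 29. SLC14A2 (a urea transporter) held 6 of 19 (31.6%), CDH13 (T-cadherin) 6 of 29 and NRG1 (neuregulin) 6 of 26. The −log10 q of their regions ran from 10.4 to 47.7. Per 100 kb, CDH23 held 2.15 and NRG1 0.493 p63-only regions.

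To learn whether the hosts had an open promoter in the absence of p63, CTR peaks at the threshold within 3 kb of a TSS were sought. An open promoter was present in CTR for 1746 of 2146 protein-coding hosts of p63-only regions (81.4%, 79.7 to 83%) and for 4546 of 5484 hosts of shared gene-body regions (82.9%, 81.9 to 83.9%). The difference was −1.54 percentage points (−3.5 to 0.355). The 1478 genes that held both kinds of region counted on both sides, which draws the 2 shares together. The interval treats the sides as independent, so it does not show that the promoters of the 2 kinds of host were alike. Of all protein-coding genes 69.6% (68.9 to 70.2%) had such a promoter. The 668 hosts of p63-only regions without a shared gene-body region had it in 70.8% of cases (67.2 to 74.1%). This was below the 82.9% of hosts of shared gene-body regions. In 400 hosts no TSS was open in CTR.

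The study used these cells to follow fibroblasts on their way to keratinocyte-like cells, and 12 gene lists of both states were examined. The background is the 15.3% of gene-body regions that were p63-only and the 32.6% of protein-coding genes with a gene-body region that hosted at least 1 (2146 of 6581). Among 20 epidermal transcription factors, 7 had a gene-body region and 5 hosted p63-only regions, 6 of 28 regions (21.4%, 10.2 to 39.5%), none with a site. Without TP63, whose exons are also in the introduced construct, the count was 4 of 22 (18.2%, 7.31 to 38.5%). The hosts included EHF, an ETS factor of epithelia (−log10 q of 39.5), OVOL2, a zinc finger factor that keeps the epithelial state (38.1), and GRHL3, needed for the skin barrier (11.5). The best matches of OVOL2 and of EHF and GRHL3 had 5 and 6 mismatches. The other named member of that list was TP63 itself.

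TP63 had 2 p63-only regions, and both lay wholly within exons. One was at chr3:189808277-189808467 in exon 4 (chr3:189808272-189808526), where the fold enrichment reached 14.6 and the −log10 q 29.9, and the other at chr3:189894268-189894476 in exon 14, with 7.99 and 11.8. The 4 shared regions of TP63 lay outside the exons of that transcript. The introduced construct carries the coding sequence of ΔNp63α, so reads from the construct and from the endogenous exons cannot be told apart. Without TP63 there were 3606 p63-only gene-body regions, with the same site share of 18.8%. KLF4 and KRT14 (keratin 14 of basal keratinocytes) had no gene-body region, and the single one of DSP (desmoplakin) overlapped a CTR peak below the threshold.

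Genes of epithelial junctions held 9 p63-only regions of 51 (17.6%, 9.57 to 30.3%) in 6 of 12 genes. PKP1, a desmosomal plaque protein, had one with a −log10 q of 43.3. PARD3, a polarity protein, had 4 of 20, the strongest at 31.3. CDH3 (P-cadherin) and CTNND1 (p120 catenin) had 1 each, at 20.3 and 20.1. Hemidesmosome and basement membrane genes held 9 of 78 (11.5%, 6.19 to 20.5%) in 8 of 14 genes. They included ITGA6, the α6 integrin of hemidesmosomes (27.9), FERMT1 or kindlin-1 (24.7) and FRAS1 (14.1), and none of the 9 had a site. Of keratins and cornified envelope genes, PPL (periplakin, 13.2) had the only one of 8 regions, and so 1 of 4 genes was a host. In the p53-family targets, 3 of 16 regions (18.8%, 6.59 to 43%) were p63-only. They lay in 3 of 10 genes, namely SESN1 (29.3), CDKN1A (16.3) and EDA2R (13). The sequences of regions with a site in these lists and in those described next show how the matches vary at genes of known function. The regions were in CDKN1A, the cell cycle inhibitor p21 (chr6:36682383-36682797, 3 mismatches), CTNND1 (chr11:57788449-57788763, 2 mismatches), PPL (chr16:4922589-4922933, 2 mismatches), PARD3 (chr10:34743773-34744139, 3 mismatches), MAML2 (chr11:96109437-96109855, 3 mismatches), WNT4 (chr1:22137338-22137854, 3 mismatches) and TCF4 (chr18:55651123-55651848, 1 mismatch).
CDKN1A: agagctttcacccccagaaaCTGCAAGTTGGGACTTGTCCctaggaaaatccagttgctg
CTNND1: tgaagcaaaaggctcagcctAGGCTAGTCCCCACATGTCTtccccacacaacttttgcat
PPL: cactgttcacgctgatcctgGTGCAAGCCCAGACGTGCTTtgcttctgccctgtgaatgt
PARD3: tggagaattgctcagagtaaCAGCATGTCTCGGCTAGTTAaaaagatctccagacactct
MAML2: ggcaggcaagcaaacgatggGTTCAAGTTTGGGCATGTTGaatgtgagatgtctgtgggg
WNT4: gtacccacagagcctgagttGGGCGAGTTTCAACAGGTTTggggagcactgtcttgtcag
TCF4: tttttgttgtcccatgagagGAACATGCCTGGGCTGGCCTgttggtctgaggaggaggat

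At CDKN1A the fold enrichment was 3.98 and the region held 58 reads at the summit, the lowest enrichment and the highest number of reads among the list genes named here. The region lay in the first intron, 3843 bp from the nearest TSS. At TCF4, a helix-loop-helix factor of mesenchymal cells, the fold enrichment was 16.8 and the −log10 q 48.

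Signalling lists lay around the background. Notch pathway genes held 7 p63-only regions of 53 (13.2%, 6.55 to 24.8%) in 4 of 9 genes. Of these regions 4 were in MAML2, a coactivator of Notch (−log10 q up to 38), and others in MAML3 (33.5), ADAM17 (14.1) and NOTCH2 (12.1). The sequence at the NOTCH2 summit occurred 4 times in the genome, so reads from the copies cannot be told apart. The site of the ADAM17 region was among 49 with at least 100 copies. Its 20 bases occurred 5883 times, the highest number among the 677 regions with a site. The EGF receptor family and its ligands held 12 of 68 (17.6%, 10.4 to 28.4%) in 6 of 13 genes. NRG1 had 6 of these (up to 36.5), NRG4 both of its 2 gene-body regions (up to 28.3), ERBB4 had 1 (19.1) and TGFA 1 (15.2). TGF-beta and BMP genes held 6 of 49 (12.2%, 5.73 to 24.2%) in 5 of 15 genes, with SMAD3 (23.8), TGFBR3 (23.1), SMAD1 (17.8) and ACVR1 (15.2). WNT genes held 5 of 31 (16.1%, 7.09 to 32.6%) in 5 of 11 genes, with WNT4 (23.5), WNT7B (14.1), the coreceptor LRP6 (11.8) and TCF7L1 (10.2). YAP and TEAD factors and their targets held 7 of 73 (9.59%, 4.72 to 18.5%) in 4 of 15 genes. The hosts were AMOTL1 (23.9), WWTR1, which encodes TAZ (19.4), STK3 (10.8) and NF2 (10.2).

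Genes of the fibroblast state were examined last. Of 31 gene-body regions in 11 genes of the fibroblast extracellular matrix 0 were p63-only (0%, 95% Wilson interval 0 to 11%), and a limit of 3 counts would allow a share of up to 9.68%. Mesenchymal transcription factors and receptors held 3 of 47 (6.38%, 2.19 to 17.2%) in 3 of 12 genes, with an interval that included the background. The hosts were TCF4, PRRX1 (12.3) and TWIST1 (11.5). The TWIST1 region lay in an annotated intron, 77307 bp from the nearest TSS. Each list holds few regions, regions of a gene are not independent, and no test was made over the lists.

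**Figure D5:**
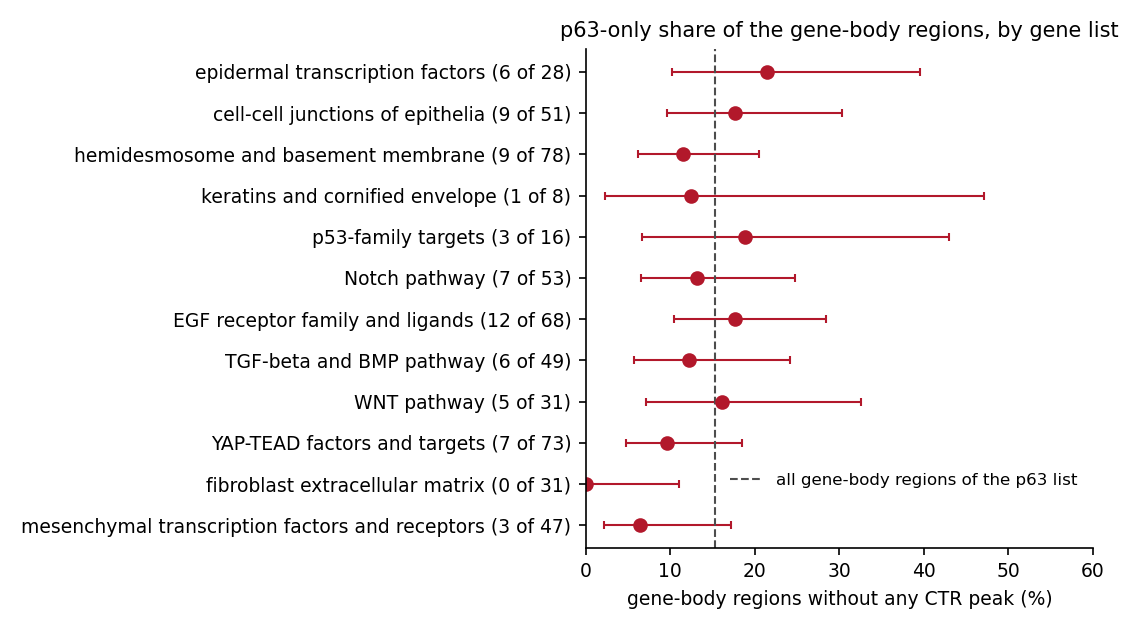
Share of gene-body regions without any CTR peak (%, x axis) for 12 gene lists (y axis, with the number of p63-only and of all gene-body regions). Points are shares, error bars 95% Wilson intervals and the dashed line the 15.3% of all gene-body regions; the intervals of 11 lists included that value and the fibroblast extracellular matrix list had 0 of 31.

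The labelled cell type was checked at promoters. A peak at the threshold within 1 kb of a TSS was present at 11 of 12 fibroblast markers in both lists, COL3A1 being the exception. Of 12 keratinocyte markers 2 were open in both lists, KRT15 and CDH1, and KRT5, KRT14 and DSG3 had no peak in either. None of 4 endothelial markers was open. Of 4 immune markers, 2 were open in CTR and 1 with p63, and of 4 melanocyte markers 1 was open in both.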

How the data were processed

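ATAC-seq of 2 CTR and 2 p63 samples was mapped by the authors to hg38 with Bowtie2 2.3.4.3, and MACS2 peaks were called from both replicates of a group. The version and options of MACS2 and the depth of the libraries are not given in the sources used here. The lists deposited by the authors give for each peak a fold enrichment (a ratio to local background), a −log10 p (the caller's score of the summit) and a −log10 q, and the offset of the summit in bp. The pooling leaves no value per replicate.

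Peaks were read with pandas 2.3.3 and placed on GENCODE release 44 of GRCh38. Reads at the summit were solved from fold and p as a Poisson tail with a pseudocount of 1, which succeeded for all 3608 regions and 100847 of 100863 CTR peaks. Sequences were read with pysam 0.24.0. Shares have 95% Wilson and differences 95% Newcombe intervals (scipy 1.17.1), and a difference was called where its interval left out 0. No p-value was computed, since regions of 1 list are not replicates. The functions for overlaps, motifs, reads and intervals were tested on simulated data.

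The regions, motifs and gene lists were chosen with earlier results of these data known. Named were the 12 strongest regions and the 10 closest matches outside chromosome 8 (ties by −log10 q), the 10 protein-coding genes with most regions, up to 4 genes per list by −log10 q, the expressed and measured genes, and regions at the limits. Marker genes named by their peaks were chosen after their values were seen. Alternatives covered the threshold, the overlap, the distance to a TSS, the annotation, merging, the site definition, the window and weighting. Peaks on other sequences were left out, and some items that the rule would name are not reported here.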

Additional observations from a re-analysis of the deposited data

How the results depend on the processing

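There were 15 alternatives, 2 of them added after seeing the data (leaving out the 67 regions with repeated sequence, and leaving out TP63). Of 78 values, 69 counted as the same. A called difference had to keep its direction, with an interval that left out 0. A difference that was not called had to keep an interval that included 0, whatever its sign. A number had to stay within 1.5 times the main value, and a share within the main interval. The site difference ranged from 6.76 to 30.2 and the AP-1 difference from −22.8 to −12.7 percentage points, and both kept their direction throughout. The intron difference ranged from −0.521 to 0.318 and the first-intron difference from −0.704 to 2.73, with intervals that included 0. At a threshold of 20 there were 1062 regions with a site share of 26.6%, and beyond 10 kb from a TSS 2090 regions. Both limits lower the number by construction, and the cause of the higher site share was not tested. The site share was 14.1% with overlap of 50% of both peaks, 7.12% and 34.1% with at most 2 and 4 mismatches, and 12.6% and 22.4% within 50 and 250 bp. The difference in open CTR promoters between hosts was called only with the TSS limit set to 1 kb, at −3.7 percentage points (−5.46 to −2), and the cause was not tested. Genes that hosted both kinds of region counted on both sides in every setting. Merging of touching peaks changed no value. Exclusion of repeat-masked summits was not run, since the reference is not masked. No paired analysis was possible because the lists hold no value per replicate. Library depth is unknown, so absence from the CTR list means fewer reads than a peak needs.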

Other observations

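The 20 bases of the best site were unique in the genome in 538 of the 677 p63-only gene-body regions with a site (79.5%, 95% Wilson interval 76.3 to 82.3%). In 61 they occurred 2 to 9 times, in 29 they occurred 10 to 99 times and in 49 (7.24%, 5.52 to 9.44%) at least 100 times. The median −log10 q in these classes was 18.1, 15.4, 18.2 and 16.6, without an order by the number of copies.

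Of the 37 p63-only regions with a summit in a coding exon, 6 lay wholly within 1 exon, and the pair at TP63 was among them. The strongest coding-exon regions were in TACC2 (−log10 q of 51.6), HEPHL1 (45.8), FMO1 (35.7), COMMD9 (33.2) and NWD1 (32.6), and those of FMO1 and COMMD9 held a site with 3 mismatches. These genes were chosen after their values were seen.

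Within the sites, the bases next to the centre fitted the recognition sequence more often at p63-only summits than in windows 2 kb away. At the 6 inner positions 81.8% of bases fitted in 677 p63-only regions, against 71.3% in the 83 sites of the windows. At the 6 outer positions the shares were 85.8% and 89%. The sites of 227 shared gene-body regions had 79.9% and 86.1%.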
